A study of Mus musculus with 16 samples.

Results

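Cytochrome P450 enzymes were followed across white adipose tissue of mice that differed in diet and in the adipocyte deletion of Sirt1. The genes were chosen by name alone: every gene whose symbol began with Cyp, a family number, a subfamily letter and a gene number was taken, which left out Cyp51. The rule found 72 P450 genes among 18193 genes with a probe set of their own on the array, and each was represented by its probe set with the highest mean over the 16 arrays.

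The study crossed genotype with diet in C57BL6/J mice, with 4 arrays of fat RNA in each of 4 groups. In the groups called KO here, Cre recombinase driven by the promoter of fatty acid binding protein 4 (FABP4-Cre) deleted Sirt1, an NAD-dependent protein deacetylase, in adipocytes; the groups called WT carried no Cre transgene. Fabp4 is known to be expressed in macrophages as well as adipocytes. The 4 groups were KO on the high fat diet, WT on the high fat diet, KO on the low fat diet and WT on the low fat diet. Every mouse was 12 weeks old and had eaten its diet for 8 weeks, starting at 4 weeks of age. No group carried Cre with intact Sirt1, so a difference between KO and WT includes the transgene. The sources used here do not give the fat depot or say whether mice were pooled, and the p-values therefore measure the spread between these samples.

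P450 enzymes are haem proteins of the endoplasmic reticulum and mitochondria that insert an oxygen atom into fat-soluble substrates, using electrons passed on by cytochrome P450 reductase, cytochrome b5 or ferredoxin. Families numbered low are best known in liver and lung for breaking down drugs and pollutants, families that oxidise fatty acids make or destroy lipid mediators, and others work on sterols, steroid hormones and the fat-soluble vitamins. Adipose tissue stores many of these fat-soluble substrates.

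Values are log2 expression, on which a difference of 1 is a change of 2-fold. The defining adipocyte markers were bright on every array, with a mean over 7 of 8 listed genes of 12.55 to 12.81 in KO high fat, 12.78 to 12.96 in WT high fat, 12.79 to 13.10 in KO low fat and 13.02 to 13.16 in WT low fat. Sirt1 itself had 8.30, 8.93, 8.81 and 8.93 in KO high fat, against 8.85, 9.10, 9.08 and 8.85 in WT high fat. On the low fat diet it had 9.37, 9.21, 9.44 and 8.94 in KO and 9.42, 9.88, 9.02 and 9.41 in WT. Those ranges overlapped on both diets, and the sources used here do not place the probe set in or outside the deleted part, so it does not check the genotype labels. Several arrays stood apart. Skeletal muscle genes were high (Tnnt3 at a log2 of 8 or more) on 5 arrays: 1 of KO high fat, 1 of WT high fat, 1 of KO low fat and 2 of WT low fat. The fourth WT high fat array lay just under that limit (Tnnt3 at 7.953), and its mean over 6 muscle genes, 8.04, was above the 7.914 of the KO high fat array counted; it was left out on its own and not together with the 5. It also carried epithelial transcripts, with a mean over 8 epithelial markers of 9.62 against at most 6.49 on any other array. Without the 5 muscle-rich arrays, 21 of the 38 P450 calls given below remained past the threshold, and without the fourth WT high fat array 36 did.

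Most P450 genes gave little signal in fat. To be tested, a gene had to reach a log2 of 4 on 4 or more arrays, and 22 of the 72 P450 genes, or 30.6%, met it, against 66.4% of all genes. Of the 72, 16 reached that value on all 16 arrays, 6 on 4 to 15 arrays, 3 on 1 to 3 arrays and 47 on none. The 5 measured enzymes of steroid hormone synthesis (Cyp11a1, Cyp11b1, Cyp11b2, Cyp17a1 and Cyp21a1) stayed below 4 on every array. Of 3 adrenal markers measured, Hsd3b1 lay between 1.757 and 2.203, Star between 4.536 and 6.767, and Mc2r, an ACTH receptor known in mouse adipocytes too, between 9.446 and 10.79. The 5 Cyp3a genes, which dominate drug oxidation in liver, reached at most 3.30. Of 11 Cyp2c genes 2 were tested, and the other 9 reached at most 2.83; of 8 Cyp2d genes 1 was tested, and the other 7 reached at most 2.51. The last gene inside the limit was Cyp2b10 with 4 arrays at or above 4, and the first outside it was Cyp4a14 with 3. Cyp4a14, a fatty acid hydroxylase induced through PPAR alpha, reached 4.49 on a KO high fat array, 4.11 on a KO low fat array and 5.38 on a WT low fat array. Those 3 arrays also had the highest means over 6 hepatocyte markers, 5.097, 4.805 and 5.421 in that order, against at most 4.575 elsewhere. The part of hepatocyte transcripts in the Cyp4a14 values was not tested. Every tested P450 gene reached 4 on arrays of more than 1 group, but 2 depended on 1 group to pass. Cyp2b10 had 3 WT low fat arrays and 1 KO low fat array at that value. Its comparisons with WT low fat below therefore use the group through which it mainly passed. Cyp2u1 had 3 KO high fat, 2 WT high fat and 1 KO low fat array.

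**Figure D1:**
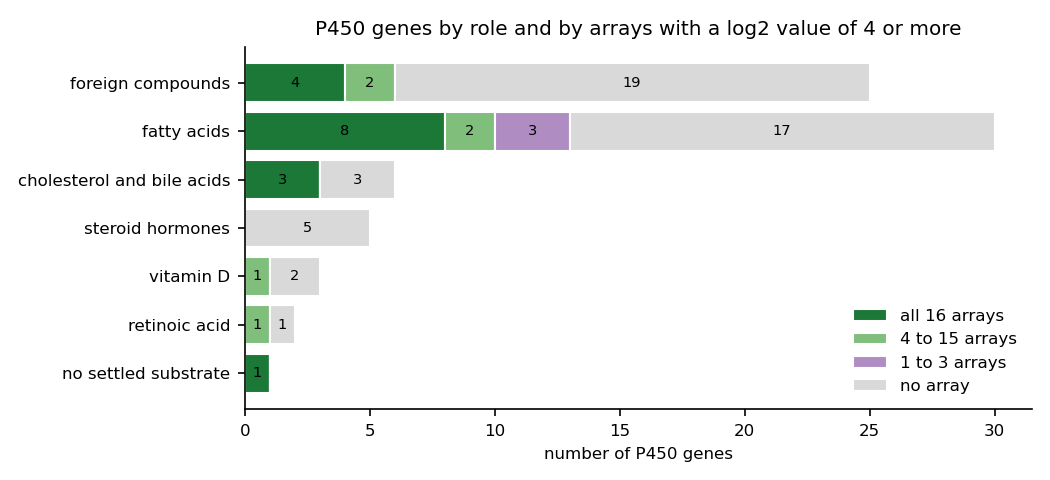
The 72 P450 genes by their role (rows) and by the number of arrays on which they reached a log2 value of 4 (colours); the horizontal axis counts genes. Foreign-compound genes number 25 with 6 tested, fatty acid genes 30 with 10 tested, and none of the 5 steroid hormone genes reached the value on any array.

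Of the 22 tested P450 genes, 16 changed in at least 1 of 5 comparisons, and 6 changed in none. The high fat diet changed 10 of 22 in KO fat (29.2% of all genes changed), 5 higher (15.6% of all genes) and 5 lower (13.5%). It also changed 10 of 22 in WT fat (35.6% of all genes), 5 higher (20.5%) and 5 lower (15.2%). KO differed from WT in 5 of 22 on the high fat diet (15.1% of all genes), 1 higher (8.58%) and 4 lower (6.47%). On the low fat diet KO differed from WT in 8 of 22 (18.9% of all genes), 4 higher (11.7%) and 4 lower (7.24%). The response to diet differed between the genotypes in 5 of 22 (13.0% of all genes), with the change in KO higher in 2 (5.12%) and lower in 3 (7.87%). The groups did not overlap for 10 P450 genes by diet in KO (33.1% of all genes), 10 by diet in WT (30.8%), 8 by genotype on the high fat diet (26.1%) and 8 by genotype on the low fat diet (17.9%). The median P450 change was -0.02 by diet in KO, 0.18 by diet in WT, 0.03 by genotype on the high fat diet and 0.04 by genotype on the low fat diet, against -0.02, 0.04, 0.00 and 0.04 over all genes tested.

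**Figure D2:**
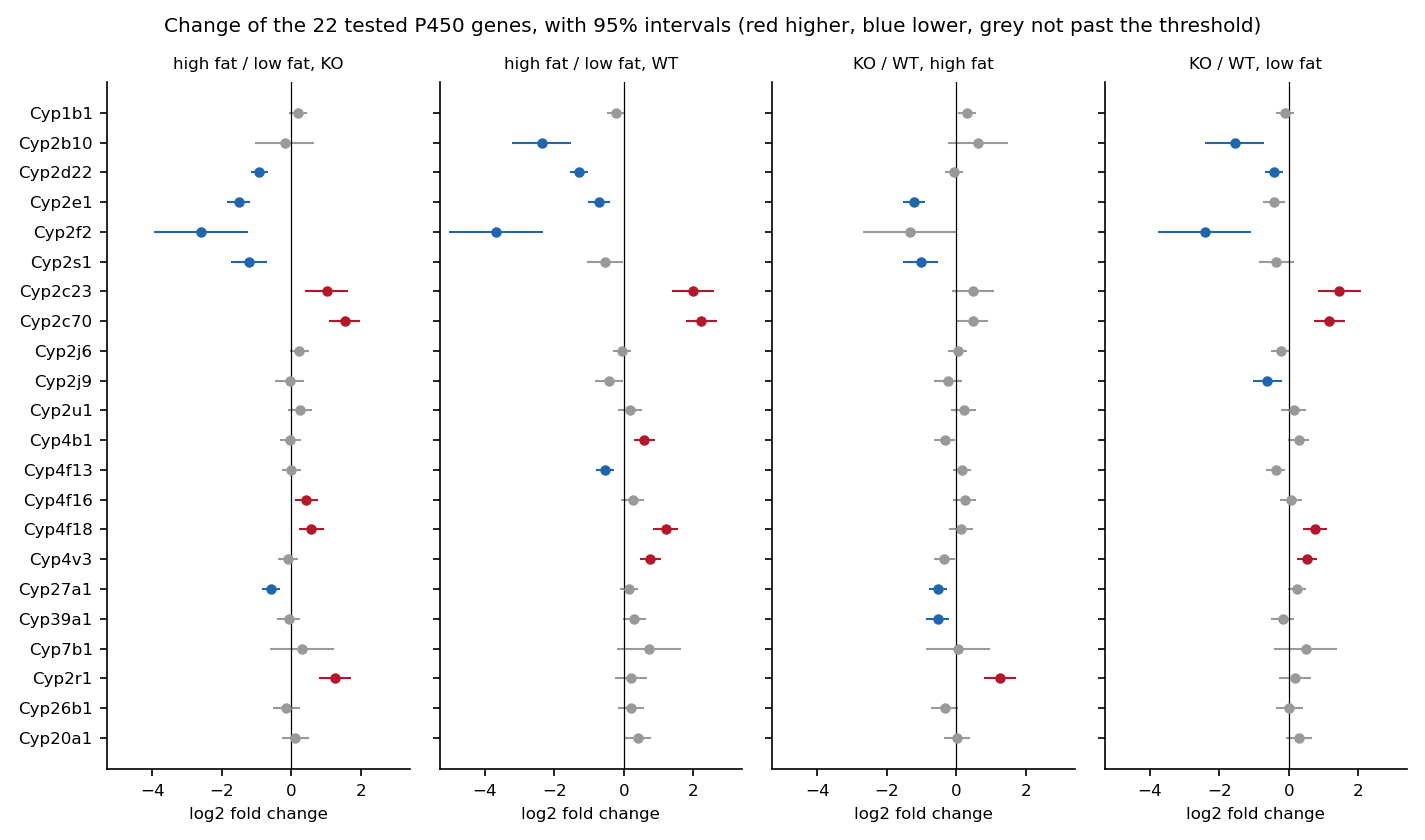
Change of each of the 22 tested P450 genes (rows, by role) as log2 fold change on the horizontal axis, with points for the estimate and lines for its 95% interval; the 4 panels are diet in KO, diet in WT, genotype on high fat and genotype on low fat. Most blue (lower) points belong to the foreign-compound genes at the top, down to -3.69 for Cyp2f2, with others for Cyp2j9, Cyp4f13, Cyp27a1 and Cyp39a1, and Cyp2c23 and Cyp2c70 carry the largest red (higher) points.

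The 6 tested enzymes of foreign-compound metabolism were Cyp1b1, Cyp2b10, Cyp2d22, Cyp2e1, Cyp2f2 and Cyp2s1. By diet in KO 4 of 6 fell, by diet in WT 4 of 6 fell, by genotype on the high fat diet 2 of 6 fell and by genotype on the low fat diet 3 of 6 fell; none rose in any of these. Over all genes 13.5%, 15.2%, 6.47% and 7.24% fell in those comparisons. Their median change was -1.07, -1.003, -0.54 and -0.43 in that order. The falls by diet in WT and by genotype on the low fat diet include Cyp2b10. It passed the filter mainly through WT low fat, so the filter favoured its falls from that group and they add no support to these counts.

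Cyp2f2, known from the club cells of mouse airways where it activates naphthalene, moved most. It had 3.49, 3.96, 3.83 and 3.76 in KO high fat, 5.00, 3.82, 4.86 and 6.73 in WT high fat, 4.57, 6.39, 6.35 and 8.15 in KO low fat, and 9.29, 7.92, 9.51 and 8.42 in WT low fat. Every WT low fat array lay above every high fat array, and all 4 KO high fat arrays lay under 4. Diet lowered Cyp2f2 in WT with a log2 change of -3.69 ± 0.63 (SE; adjusted p = 0.000366), 12.9-fold, and in KO with -2.61 ± 0.63 (adjusted p = 0.00571), or -2.36 with values under 4 raised to 4. On the low fat diet KO was lower than WT, with a log2 difference of -2.42 ± 0.63 (adjusted p = 0.0149), though the groups overlapped through the 8.15 of the fourth KO array. That call ended without the first KO low fat array (-1.82, adjusted p = 0.0534) and without the muscle-rich arrays (-2.25, adjusted p = 0.177), and the diet change in KO without the muscle-rich arrays had an adjusted p of 0.051. On the high fat diet the difference of -1.34 did not pass (adjusted p = 0.169, 95% interval -2.69 to 0.00).

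The airway markers Scgb1a1, Scgb3a1, Scgb3a2, Foxj1 and Sftpc stayed under 4 on all 16 arrays, with Scgb1a1 at 1.93 to 2.88. Brown fat markers moved with diet: 7 of 7 fell by diet in KO and 5 of 7 in WT, with Cidea at -5.50 in KO and -3.95 in WT. Where KO was compared with WT on the low fat diet, 2 of 7 passed, in opposite directions: Dio2 was higher in KO (1.90, adjusted p = 0.00171) and Ppargc1a lower (-1.01, adjusted p = 0.0213). Cidea differed there by 0.01 and Ucp1 by 0.82, and neither passed (adjusted p = 0.994 and 0.517). The fourth WT high fat array, which held the epithelial transcripts (Cdh1 at 10.3), also held the highest Cyp2f2 of its group; without it the diet change in WT was -4.23 (adjusted p = 0.000129). The fourth KO low fat array had the highest Cyp2f2, Cdh1 (7.10) and Ucp1 (11.8) of its group. In KO high fat the array highest in Cyp2f2 was highest in Ucp1 (7.228) but not in Cdh1 (2.631 against 3.404). In WT high fat it was not highest in Ucp1 (6.373 against 8.186). In WT low fat it was highest in neither Ucp1 (10.268 against 10.35) nor Cdh1 (2.136 against 2.399). In WT low fat, KO low fat and WT high fat, the array highest in Cyp2f2 was also highest in hepatocyte marker mean. Those means were 5.421, 4.805 and 4.575. The 4.575 in WT high fat rested on Ttr (9.568 on that array). Alb (5.256 against 6.394) and Apoa1 (3.8 against 4.368) were higher on the second WT high fat array. In KO high fat the highest mean, 5.097, fell on an array with a Cyp2f2 of 3.83, not the highest. Of 3 hepatocyte markers tested, 1 fell by diet in each genotype, Apoa1 in WT (-1.73) and Alb in KO (-2.05). None passed by genotype on either diet. The part of these cell types in the Cyp2f2 values was not tested, and in bulk tissue fewer cells of a type and less RNA per cell cannot be told apart.

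**Figure D3:**
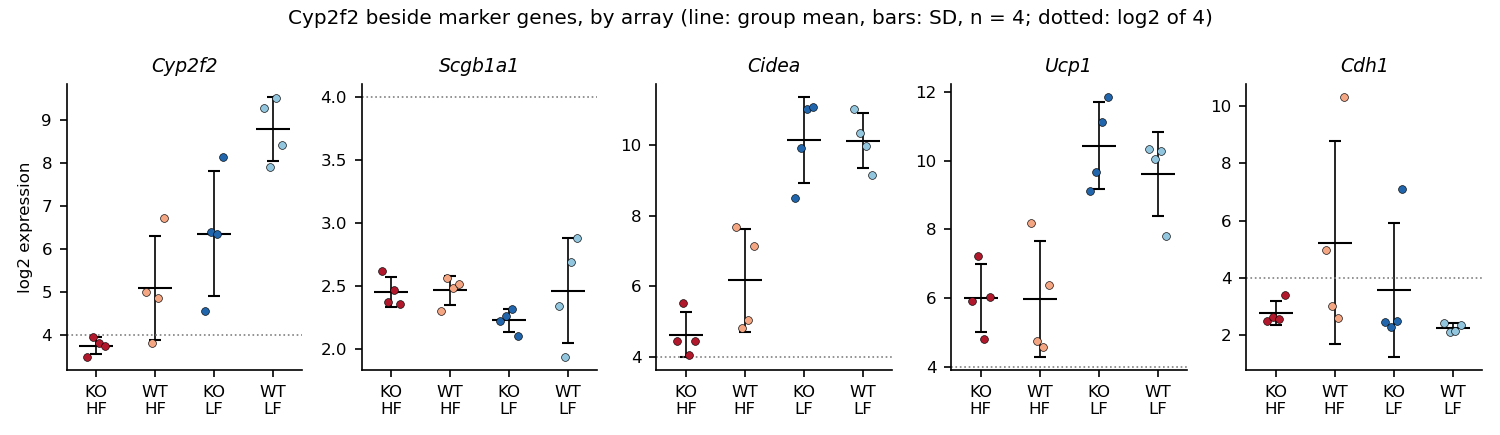
Log2 expression of Cyp2f2, the airway marker Scgb1a1, the brown fat markers Cidea and Ucp1 and the epithelial marker Cdh1 by array (points) in the 4 groups, with the group mean and SD. Scgb1a1 lies under 4 throughout, Cidea and Ucp1 average less in both high fat groups than in the low fat groups, and a single WT high fat array reaches 10.3 for Cdh1.

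Cyp2e1, which oxidises ethanol, acetone and fatty acids, had 10.84, 11.38, 11.62 and 11.48 in KO high fat, 12.57, 12.51, 12.56 and 12.60 in WT high fat, 12.58, 12.80, 12.93 and 13.10 in KO low fat, and 13.37, 13.11, 13.29 and 13.34 in WT low fat. All 4 KO high fat arrays lay below all 12 others. It fell with diet in both genotypes, with a change of -1.52 ± 0.15 in KO (adjusted p = 4.23e-06, 2.87-fold) and -0.72 ± 0.15 in WT (adjusted p = 0.0017). KO was below WT on the high fat diet, with a difference of -1.23 ± 0.15 (adjusted p = 0.000125), while the difference of -0.42 on the low fat diet did not pass (adjusted p = 0.0609) although those groups did not overlap. The diet change differed between genotypes by -0.81 ± 0.21 (adjusted p = 0.0216). Without the muscle-rich arrays the change by diet in WT (-0.68, adjusted p = 0.0587) and the difference between genotypes (-0.91, adjusted p = 0.133) were of about that size and no longer passed. The adipocyte marker mean was also lowest in KO high fat (12.55 to 12.81), and its part in the Cyp2e1 values was not tested.

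Cyp2d22, a mouse relative of the human drug-oxidising enzyme CYP2D6, changed with diet in both genotypes. It had 10.11, 9.87, 9.99 and 9.95 in KO high fat, 10.25, 10.003, 9.97 and 9.94 in WT high fat, 10.95, 10.67, 11.12 and 10.88 in KO low fat, and 11.11, 11.40, 11.37 and 11.45 in WT low fat. The high fat arrays lay below all low fat arrays in both genotypes. Its change by diet was -0.92 ± 0.12 in KO (adjusted p = 3.31e-05) and -1.29 ± 0.12 in WT (adjusted p = 1.79e-06). On the low fat diet KO was lower, with a difference of -0.43 ± 0.12 (adjusted p = 0.0193), a call that ended without the second KO array (-0.35, adjusted p = 0.0735) and without the muscle-rich arrays (-0.28, adjusted p = 0.371). Its other probe set gave -1.21 for diet in KO, -1.96 for diet in WT and -1.21 for KO on the low fat diet.

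Cyp2s1, a P450 found mainly outside the liver, fell where KO and high fat diet met. It had 5.89, 5.33, 5.85 and 5.28 in KO high fat, against 6.46, 6.54, 6.45 and 6.996 in WT high fat and 7.005, 6.75, 6.94 and 6.52 in KO low fat; WT low fat had 7.77, 6.99, 6.44 and 7.44. All KO high fat arrays were below all others. The change was -1.22 ± 0.24 by diet in KO (adjusted p = 0.00133) and -1.03 ± 0.24 by genotype on the high fat diet (adjusted p = 0.00938). The highest of its WT high fat values came from the array with epithelial transcripts, without which the difference between genotypes was -0.90 (adjusted p = 0.0308). By diet in WT the change of -0.55 did not pass (adjusted p = 0.0908), and the difference between the diet changes of the genotypes did not either (-0.67, adjusted p = 0.204). Epithelial markers (3 of 4 tested), mesothelial markers (4 of 4) and endothelial markers (3 of 3) also fell in KO on the high fat diet, against 6.47% of all genes. The epithelial count includes the WT high fat array with epithelial transcripts, where Krt18 was 12.73 against at most 8.28 on the others of that group. The part of these markers in the Cyp2s1 values was not tested.

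Cyp2b10, the classical phenobarbital-inducible P450 of mouse liver, was near the lower end of the scale in all groups but WT low fat. It had 3.02, 2.86, 3.12 and 3.33 in KO high fat, 2.62, 2.29, 2.49 and 2.43 in WT high fat, 2.45, 2.75, 3.42 and 4.48 in KO low fat, and 5.61, 4.42, 5.51 and 3.78 in WT low fat. It fell with diet in WT, with a change of -2.37 ± 0.40 (adjusted p = 0.000329), or -0.89 with values raised to 4. KO was lower on the low fat diet, with a difference of -1.55 ± 0.40 (adjusted p = 0.014), and that call ended with values raised to 4 (-0.76, adjusted p = 0.0582), without the first KO array (adjusted p = 0.0551), without the first WT array (adjusted p = 0.0526) and without the muscle-rich arrays (adjusted p = 0.0737). Both of its other probe sets, whose probes are shared between transcripts, passed in the same direction by diet in WT (-3.05 and -2.89). Its usual regulator CAR (Nr1i3) lay between 2.111 and 2.641 on all arrays, and PXR (Nr1i2) between 1.504 and 2.139.

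Cyp1b1, an AHR-induced enzyme that also oxidises oestrogens, passed in no comparison. It averaged 10.54 in KO high fat, 10.25 in WT high fat, 10.36 in KO low fat and 10.46 in WT low fat. The largest difference was 0.30 by genotype on the high fat diet (adjusted p = 0.116, 95% interval 0.04 to 0.56).

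**Figure D4:**
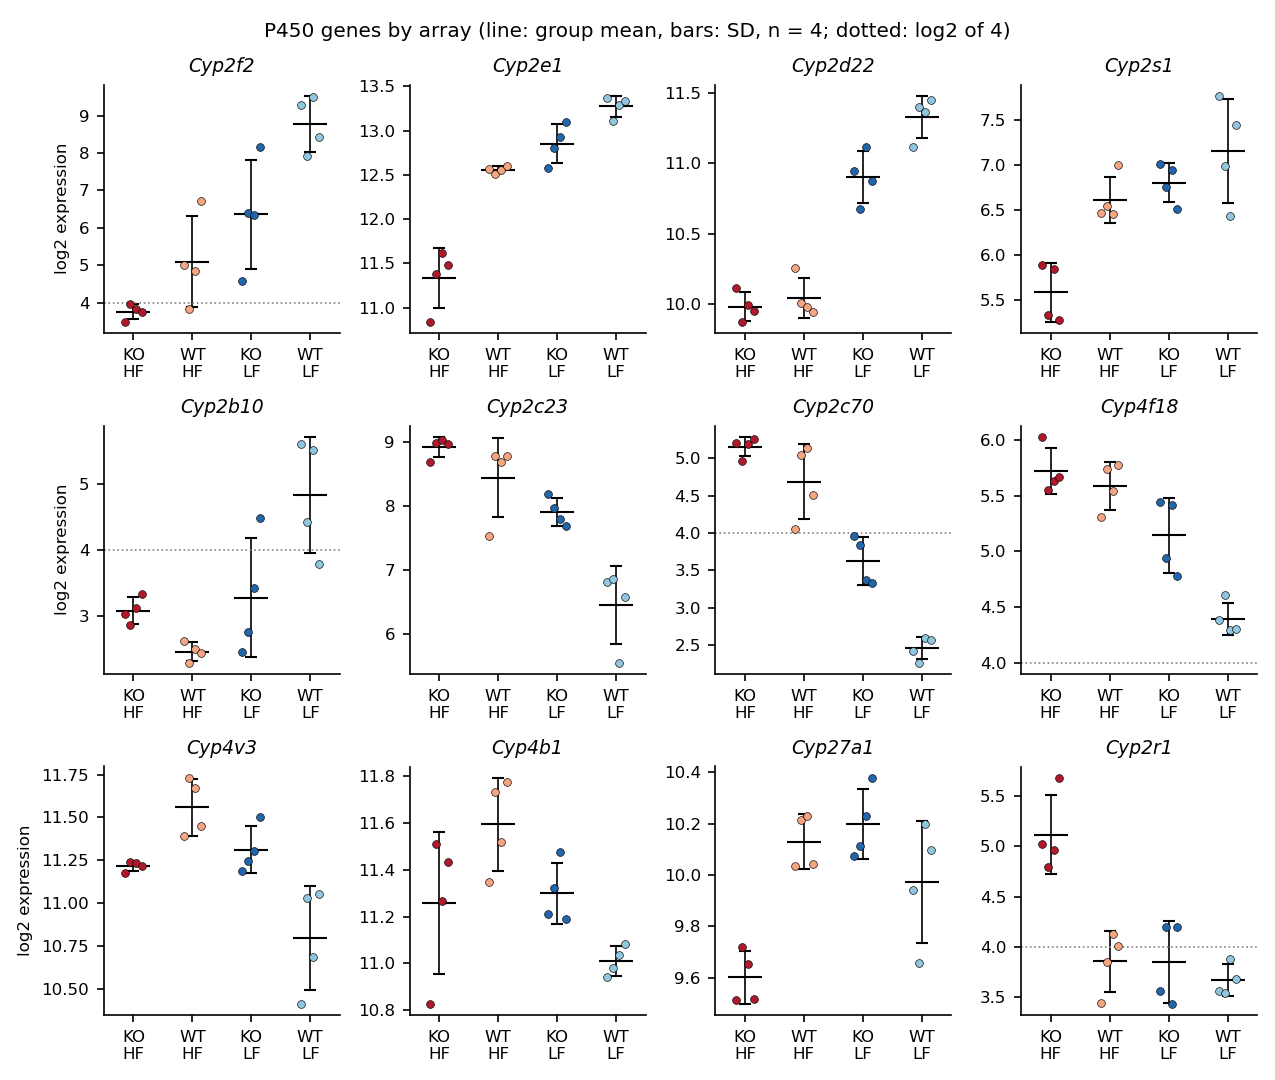
Log2 expression of 12 P450 genes by array (points) in KO high fat, WT high fat, KO low fat and WT low fat, with the group mean (line) and SD (bars) of 4 arrays. Cyp2f2, Cyp2e1, Cyp2d22 and Cyp2s1 are highest in WT low fat, Cyp2c23, Cyp2c70 and Cyp4f18 are lowest there, and Cyp2r1 stands above the other groups in KO high fat alone.

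Cyp2s1, Cyp2b10 and Cyp2f2 sit in a gene cluster on mouse chromosome 7. RefSeq (GRCm38.p6) lists 17 Cyp2 genes there, 4 of them pseudogenes, with Cyp2s1 and Cyp2b10 at one end and Cyp2f2 next to last at the other. Probe sets with a single symbol measured 8, and the 5 that lie between the 3 tested ones (Cyp2b13, Cyp2b9, Cyp2b19, Cyp2g1 and Cyp2a12) reached at most 2.56 on any array. A probe set shared by Cyp2a5 and Cyp2a4 of the same cluster was set aside for naming both genes and reached at most 3.362. Cyp2e1 and Cyp2r1 lie elsewhere on the same chromosome.

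The promoters of the foreign-compound genes that fell and are in the RefSeq table are shown so that their start regions can be compared; each runs from 250 bases before to 50 bases after the start site, 5′ to 3′ on the strand of the gene. Capitals mark, on either strand, the TATA box (TATAAA), the CCAAT box (CCAAT), the half-site of nuclear receptors (AGGTCA) and the core of the AHR element (GCGTG). Of 32851 mouse promoters of that length, 13.6% hold TATAAA, 37.4% CCAAT, 16.3% AGGTCA and 32.4% GCGTG.
Cyp2f2 (GRCm38.p6, chr7:27119705-27120004, + strand): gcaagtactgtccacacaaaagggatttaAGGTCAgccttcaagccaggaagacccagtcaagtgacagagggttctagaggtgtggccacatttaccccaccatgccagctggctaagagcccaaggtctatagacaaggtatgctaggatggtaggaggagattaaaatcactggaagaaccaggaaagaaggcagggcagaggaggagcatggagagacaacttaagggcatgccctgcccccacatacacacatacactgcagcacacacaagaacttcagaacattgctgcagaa
Cyp2b10 (GRCm38.p6, chr7:25897408-25897707, + strand): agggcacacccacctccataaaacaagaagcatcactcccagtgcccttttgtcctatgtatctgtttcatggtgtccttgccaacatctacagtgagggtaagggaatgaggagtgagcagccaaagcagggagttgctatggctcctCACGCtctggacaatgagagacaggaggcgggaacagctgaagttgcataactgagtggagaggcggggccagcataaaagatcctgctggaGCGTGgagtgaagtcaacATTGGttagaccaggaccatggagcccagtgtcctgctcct
Cyp2s1 (GRCm38.p6, chr7:25816476-25816775, - strand): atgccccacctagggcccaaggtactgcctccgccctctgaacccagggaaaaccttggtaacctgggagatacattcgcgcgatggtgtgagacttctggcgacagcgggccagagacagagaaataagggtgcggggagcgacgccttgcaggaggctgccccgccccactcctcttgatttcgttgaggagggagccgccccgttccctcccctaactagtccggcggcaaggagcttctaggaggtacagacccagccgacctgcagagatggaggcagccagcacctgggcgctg
Cyp2e1 (GRCm38.p6, chr7:140763569-140763868, + strand): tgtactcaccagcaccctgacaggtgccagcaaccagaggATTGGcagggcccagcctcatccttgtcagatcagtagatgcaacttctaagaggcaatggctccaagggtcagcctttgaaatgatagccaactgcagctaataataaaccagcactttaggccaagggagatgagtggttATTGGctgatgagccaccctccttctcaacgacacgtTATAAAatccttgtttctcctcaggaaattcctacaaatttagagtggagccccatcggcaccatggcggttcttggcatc
The 4 differ in these letters. Cyp2f2 has an AGGTCA and no TATAAA, Cyp2b10 has 2 GCGTG cores and a CCAAT just past the start, Cyp2s1 has none of the 4 motifs, and Cyp2e1 has TATAAA 31 bases before the start with 2 CCAAT boxes upstream. A match here is a description of letters and not a bound site.

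The 10 tested enzymes of fatty acid and eicosanoid oxidation were Cyp2c23, Cyp2c70, Cyp2j6, Cyp2j9, Cyp2u1, Cyp4b1, Cyp4f13, Cyp4f16, Cyp4f18 and Cyp4v3. By diet in KO 4 rose and none fell, by diet in WT 5 rose and 1 fell, by genotype on the low fat diet 4 rose and 1 fell, and by genotype on the high fat diet none passed in limma (3 of 10 had an unadjusted p under 0.05, against 3579 of 12078 genes). Over all genes 15.6%, 20.5% and 11.7% were higher in the first 3 of these comparisons, and 13.5%, 15.2% and 7.24% lower. Their median change was 0.23, 0.42, 0.22 and 0.15 in that order. The rises by diet include Cyp2c70, which reached a log2 of 4 on high fat arrays only, so the filter favoured its rises with diet. The list was drawn by subfamily, and Cyp2c70 is known in mouse liver for another task, the conversion of a bile acid to muricholic acid.

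Cyp2c23, an epoxygenase of arachidonic acid studied mostly in rat kidney, had 8.68, 8.99, 9.03 and 8.97 in KO high fat, 7.53, 8.78, 8.69 and 8.77 in WT high fat, 8.19, 7.97, 7.79 and 7.69 in KO low fat, and 6.82, 6.86, 5.56 and 6.59 in WT low fat. WT low fat lay below every other array, and 1 WT high fat array (7.53) lay below the KO low fat arrays. The change was 1.01 ± 0.29 by diet in KO (adjusted p = 0.0154), 1.99 ± 0.29 by diet in WT (adjusted p = 8.91e-05, 3.96-fold) and 1.45 ± 0.29 by genotype on the low fat diet (adjusted p = 0.00267). The last of these became 1.05 (adjusted p = 0.0812) without the muscle-rich arrays. On the high fat diet the difference of 0.48 did not pass (adjusted p = 0.292, 95% interval -0.14 to 1.09). Its probe set is of the kind whose probes can match more than 1 transcript.

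Cyp2c70 gave the same order of groups at the low end of the scale. It had 5.20, 4.96, 5.20 and 5.26 in KO high fat, 4.06, 5.05, 5.13 and 4.50 in WT high fat, 3.96, 3.83, 3.37 and 3.33 in KO low fat, and 2.42, 2.26, 2.59 and 2.56 in WT low fat. All high fat arrays were above 4 and all low fat arrays under it. The change was 1.53 ± 0.21 by diet in KO (adjusted p = 5.4e-05) and 2.23 ± 0.21 by diet in WT (adjusted p = 2.17e-06), or 1.16 and 0.69 with values raised to 4. The difference by genotype on the low fat diet, 1.17 ± 0.21 (adjusted p = 0.00125), lay wholly under 4 and was 0.00 with values raised to 4. Both Cyp2c genes are on chromosome 19.

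Cyp4f18, known in mouse neutrophils for inactivating leukotriene B4, had 6.03, 5.55, 5.63 and 5.67 in KO high fat, 5.31, 5.74, 5.54 and 5.78 in WT high fat, 5.44, 4.94, 5.42 and 4.78 in KO low fat, and 4.38, 4.60, 4.29 and 4.30 in WT low fat. WT low fat was again below all other arrays. The change was 0.58 ± 0.16 by diet in KO (adjusted p = 0.0154), 1.20 ± 0.16 by diet in WT (adjusted p = 5.78e-05) and 0.75 ± 0.16 by genotype on the low fat diet (adjusted p = 0.00507). The call in KO ended without the first KO high fat array (0.47, adjusted p = 0.0566), without the second KO low fat array (0.51, adjusted p = 0.0502) and without the muscle-rich arrays (0.53, adjusted p = 0.12), and the call by genotype ended without the muscle-rich arrays (0.72, adjusted p = 0.102) and with the mean of all its probe sets (0.31, adjusted p = 0.0612). Macrophage markers ran in the same order, with a mean of 11.08 to 11.30 in KO high fat, 9.48 to 10.51 in WT high fat, 9.40 to 9.62 in KO low fat and 8.58 to 8.76 in WT low fat. Neutrophil markers, as a mean over 3 genes, ran from 6.91 to 7.11, 5.40 to 5.88, 4.79 to 6.96 and 3.98 to 4.99 in those groups. Of the 2 tested, S100a8 rose by diet in WT (3.37, adjusted p = 2.09e-05) and S100a9 did not pass (-0.72, adjusted p = 0.438). The part of macrophages and neutrophils in Cyp4f18 was not tested.

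Cyp4v3 and Cyp4b1 rose with diet in WT, and neither passed the threshold in KO. Cyp4v3, the mouse relative of the human fatty acid hydroxylase CYP4V2, had 11.18, 11.24, 11.24 and 11.22 in KO high fat, 11.39, 11.73, 11.67 and 11.45 in WT high fat, 11.19, 11.24, 11.31 and 11.50 in KO low fat, and 10.42, 11.03, 10.69 and 11.05 in WT low fat. Its change was -0.09 ± 0.14 by diet in KO (adjusted p = 0.649) and 0.76 ± 0.14 by diet in WT (adjusted p = 0.000516), and the genotypes differed by -0.86 ± 0.19 (adjusted p = 0.00961). KO was above WT on the low fat diet by 0.51 ± 0.14 (adjusted p = 0.0164), a call that ended without the first WT array (0.39, adjusted p = 0.0528) and without the muscle-rich arrays (0.61, adjusted p = 0.0912). Its other probe set gave -1.10 for the difference between genotypes (adjusted p = 0.0251). Cyp4b1, a hydroxylase of shorter fatty acids, averaged 11.26 in KO high fat, 11.59 in WT high fat, 11.30 in KO low fat and 11.01 in WT low fat; the change by diet was -0.04 in KO (adjusted p = 0.858) and 0.58 ± 0.14 in WT (adjusted p = 0.00479), and the difference between them did not pass (-0.63, adjusted p = 0.052).

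The other Cyp4f genes moved less. Cyp4f13 fell by diet in WT (-0.55 ± 0.13, adjusted p = 0.0036) and averaged 7.38, 7.21, 7.39 and 7.76 in KO high fat, WT high fat, KO low fat and WT low fat. Cyp4f16 rose by diet in KO by 0.43 ± 0.15 with an adjusted p of 0.0462, and this call ended under 19 of the other settings tried, including the replicate block (adjusted p = 0.0589). A second probe set of Cyp4f16, of the kind that can cross-hybridise, gave 0.67 there (adjusted p = 0.0117). It also passed by diet in WT (0.56, adjusted p = 0.0229) and by genotype on the high fat diet (0.60, adjusted p = 0.0355), where the brightest probe set did not. Cyp2j9, an arachidonic acid hydroxylase of mouse brain, was lower in KO on the low fat diet, with a difference of -0.61 ± 0.19 (adjusted p = 0.0367) and averaged 6.25 in KO against 6.86 in WT; 9 settings ended this call, 6 of them by leaving out 1 array of either group. Cyp2j6 and Cyp2u1, an epoxygenase and a hydroxylase of long fatty acids, passed in none of the 5 comparisons, with changes between -0.24 and 0.28 for Cyp2j6 and between 0.07 and 0.24 for Cyp2u1. A second probe set of Cyp2j6 had the opposite sign in all 5 and passed in none. It gave 0.49 by diet in WT (adjusted p = 0.0656) and -0.82 for the difference between genotypes in diet change (adjusted p = 0.065).

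Promoters of Cyp2c70 and Cyp4f18, the Cyp2c and Cyp4f genes in the table that rose in 3 comparisons, are marked in the same way to show whether they share the letters seen above. That of Cyp4f16, which rose in 1 by its brightest probe set, is not printed. It holds a CCAAT and a GCGTG on the opposite strand.
Cyp2c70 (GRCm38.p6, chr19:40187237-40187536, - strand): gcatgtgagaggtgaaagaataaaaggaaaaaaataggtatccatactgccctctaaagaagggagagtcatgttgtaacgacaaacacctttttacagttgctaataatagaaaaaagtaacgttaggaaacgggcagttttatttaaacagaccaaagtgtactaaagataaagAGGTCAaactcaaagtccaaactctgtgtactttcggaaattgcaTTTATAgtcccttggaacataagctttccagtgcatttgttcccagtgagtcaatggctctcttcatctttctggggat
Cyp4f18 (GRCm38.p6, chr8:72009577-72009876, - strand): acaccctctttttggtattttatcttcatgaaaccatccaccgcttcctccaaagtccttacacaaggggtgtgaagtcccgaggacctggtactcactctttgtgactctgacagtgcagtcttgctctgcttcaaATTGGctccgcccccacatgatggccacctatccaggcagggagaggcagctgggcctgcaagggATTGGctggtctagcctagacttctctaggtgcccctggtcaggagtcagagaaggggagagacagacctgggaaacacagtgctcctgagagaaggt
Cyp2c70 has TATAAA on the opposite strand 29 bases before the start and an AGGTCA further up, and Cyp4f18 has 2 CCAAT boxes on the opposite strand and no TATAAA. Of the 17 tested P450 genes with a promoter in the table, 3 held TATAAA, 9 CCAAT, 2 AGGTCA and 7 GCGTG.

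Of 6 genes of cholesterol and bile acid oxidation, Cyp7a1, Cyp8b1 and Cyp46a1 stayed under 4 (at most 2.19, 2.60 and 3.75) and 3 were tested. Cyp27a1, the mitochondrial sterol hydroxylase, had 9.52, 9.72, 9.66 and 9.52 in KO high fat, 10.03, 10.21, 10.23 and 10.04 in WT high fat, 10.07, 10.11, 10.23 and 10.38 in KO low fat, and 9.94, 9.66, 10.20 and 10.10 in WT low fat. The KO high fat arrays lay below both WT high fat and KO low fat. Its change was -0.60 ± 0.12 by diet in KO (adjusted p = 0.00164), 0.16 by diet in WT (adjusted p = 0.335) and -0.53 ± 0.12 by genotype on the high fat diet (adjusted p = 0.00844), and the genotypes differed in their diet change by -0.75 ± 0.17 (adjusted p = 0.00999). The difference by genotype had an adjusted p of 0.0804 without the muscle-rich arrays (-0.47). A second, dim probe set did not follow, so that the mean of both ended these 3 calls (adjusted p = 0.382, 0.152 and 0.201).

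Cyp39a1, an oxysterol hydroxylase, was lower in KO on the high fat diet, with a difference of -0.54 ± 0.16 (adjusted p = 0.029), with 6.28, 6.62, 6.87 and 6.48 in KO against 7.25, 6.63, 7.07 and 7.47 in WT. The groups overlapped, and the call ended under 9 other settings, among them leaving out the fourth WT array with its epithelial transcripts (-0.42, adjusted p = 0.0896). Cyp7b1, another oxysterol hydroxylase, passed in no comparison and was the most variable in KO low fat, with 5.70, 7.50, 5.67 and 4.81.

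Cyp2r1, the microsomal enzyme that begins vitamin D activation, was raised in a single group. It had 5.02, 4.79, 4.97 and 5.68 in KO high fat, 3.44, 3.85, 4.13 and 4.01 in WT high fat, 3.56, 4.20, 3.44 and 4.20 in KO low fat, and 3.56, 3.54, 3.88 and 3.68 in WT low fat. All 4 KO high fat arrays lay above all 12 others. Diet changed it by 1.27 ± 0.22 in KO (adjusted p = 0.00042, 2.40-fold) and by 0.19 in WT (adjusted p = 0.519), KO exceeded WT by 1.26 ± 0.22 on the high fat diet (adjusted p = 0.00137), and the genotypes differed in their diet change by 1.07 ± 0.31 (adjusted p = 0.031). With values raised to 4 these were 1.02, 0.04, 1.08 and 0.98. The last call ended on leaving out any of 5 single arrays (adjusted p = 0.0557 to 0.0686) and without the muscle-rich arrays (0.98, adjusted p = 0.118). Cyp27b1, which completes activation, and Cyp24a1, which inactivates vitamin D, reached at most 2.38 and 3.02. The macrophage marker mean was highest in KO high fat. Of 7 macrophage markers, 5 rose by diet in KO (15.6% of all genes) and 4 by genotype on the high fat diet (8.58%). Their changes by diet in KO ran from 0.159 to 4.69, the largest being that of Trem2. The part of macrophages in Cyp2r1 was not tested. Its promoter is shown as that of the P450 gene raised in KO high fat, and holds 2 CCAAT boxes on the strand of the gene and a GCGTG just past the start.
Cyp2r1 (GRCm38.p6, chr7:114562923-114563222, - strand): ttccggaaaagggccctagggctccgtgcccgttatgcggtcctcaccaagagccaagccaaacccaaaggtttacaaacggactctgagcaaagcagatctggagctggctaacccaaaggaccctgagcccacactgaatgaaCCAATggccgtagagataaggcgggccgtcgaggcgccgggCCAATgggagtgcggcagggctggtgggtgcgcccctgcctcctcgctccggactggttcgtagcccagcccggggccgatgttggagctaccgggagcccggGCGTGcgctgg

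Cyp26b1, which breaks down retinoic acid, averaged 4.21 in KO high fat, 4.55 in WT high fat, 4.35 in KO low fat and 4.34 in WT low fat and passed in no comparison, while Cyp26a1 reached at most 3.06. Cyp20a1, a P450 with no settled substrate, averaged 11.08, 11.06, 10.96 and 10.66 in these groups and passed in none.

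Diet and genotype can be read together from the 5 P450 genes whose diet change differed between KO and WT. For Cyp2e1 and Cyp27a1 the change was lower in KO, for Cyp2r1 it was higher in KO, and Cyp4v3 rose in WT without a called change in KO. Cyp2b10 changed by -0.19 in KO (adjusted p = 0.757) and -2.37 in WT, a difference of 2.18 ± 0.56 (adjusted p = 0.0208) that became 0.76 with values raised to 4 (adjusted p = 0.189). Cyp2f2 had no such difference past the threshold (1.08, adjusted p = 0.444, 95% interval -0.82 to 2.98). Without the muscle-rich arrays only Cyp27a1 of the 5 still passed (-0.89, adjusted p = 0.0485). The group means ran upward from WT low fat through KO low fat and WT high fat to KO high fat for 8 of 22 P450 genes (15.9% of all genes) and downward for 4 of 22 (13.2% of all genes), namely Cyp2d22, Cyp2e1, Cyp2f2 and Cyp2s1. The upward ones were Cyp20a1, Cyp2c23, Cyp2c70, Cyp2r1, Cyp2u1, Cyp4f16, Cyp4f18 and Cyp7b1. Among them Cyp20a1, Cyp2u1 and Cyp7b1 passed in no comparison, so an order of means does not require a called step. These orders use the same arrays as the comparisons above.

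**Figure D5:**
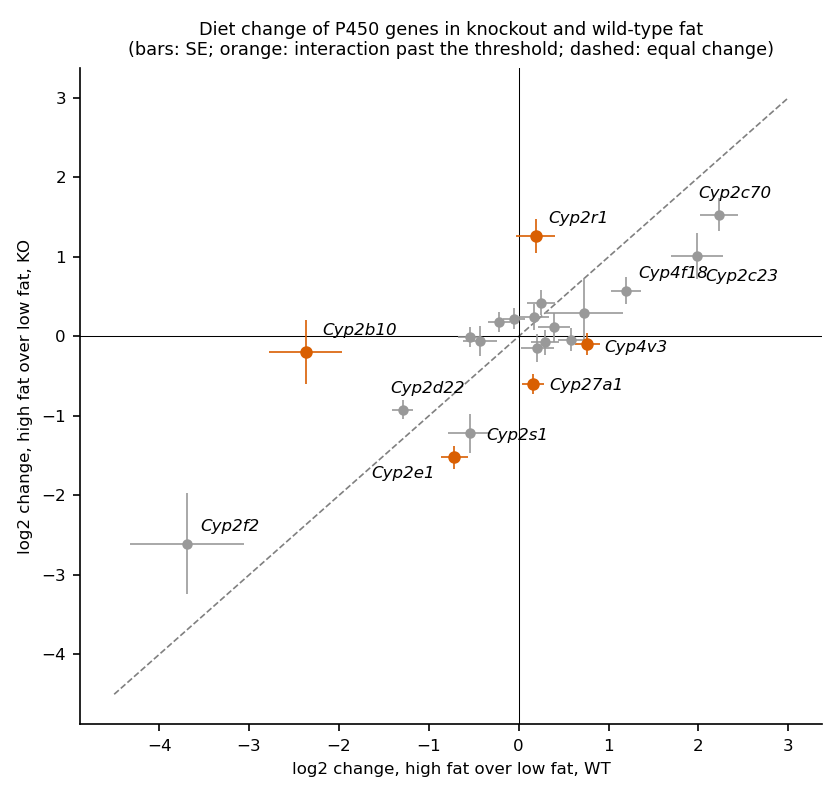
Log2 change with the high fat diet in KO (vertical axis) against that in WT (horizontal axis) for the 22 tested P450 genes, with SE bars; the dashed line marks equal change and orange points are the 5 genes whose interaction passed. Cyp2r1 lies above the line at 1.27 in KO against 0.19 in WT, and Cyp2e1, Cyp27a1 and Cyp4v3 lie below it.

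Genes that work with P450 enzymes were read from lists of electron donors and haem supply, other P450s with epoxide hydrolases, and regulators; 21 were tested. By diet 11 of 21 passed in KO and 11 of 21 in WT, by genotype 5 of 21 on the high fat diet and 4 of 21 on the low fat diet, against 29.2%, 35.6%, 15.1% and 18.9% of all genes; the last count is close to the share over all genes. Cyb5b and Cyb5r3, of the cytochrome b5 electron chain, were higher in all 4 comparisons (Cyb5b by 0.56, 0.63, 0.56 and 0.63 for diet in KO, diet in WT, genotype on high fat and genotype on low fat). Cyb5a, the other cytochrome b5 listed, passed in none of the 4. It changed by -0.19 by diet in WT (adjusted p = 0.115). Its high fat arrays lay below its low fat arrays in both genotypes, at 12.45 to 12.485 against 12.614 to 12.751 in KO. Of 29 other settings, 21 ended the Cyb5r3 call by genotype on the high fat diet (0.37, adjusted p = 0.0494) and 8 its call by diet in KO (0.37, adjusted p = 0.0292). The Cyb5b call by genotype on the high fat diet ended under 8, and it was 0.28 with the mean of all its probe sets (adjusted p = 0.256). Alas1, which starts haem synthesis, fell by diet in KO (-0.67, adjusted p = 0.0112) and in WT (-1.07, adjusted p = 0.000321). Ppara, the receptor for fatty acids, fell by diet in KO (-1.87, adjusted p = 0.000296) and in WT (-2.31, adjusted p = 4.3e-05). Ahr, the sensor of aromatic pollutants, was lower in KO on the high fat diet (-0.61, adjusted p = 0.0203). Tbxas1, the P450 of thromboxane synthesis found in macrophages and platelets, rose by diet in KO (1.89, adjusted p = 5.04e-05) and in WT (1.14, adjusted p = 0.00257) and by genotype on the high fat diet (1.27, adjusted p = 0.00355). Ptgis, the prostacyclin synthase, fell in KO on the high fat diet (-0.66, adjusted p = 0.0175). Cyp51, the P450 of cholesterol synthesis, rose by diet in KO (0.79, adjusted p = 0.00532) and was lower in KO on the low fat diet (-0.73, adjusted p = 0.0144). The remaining genes past the threshold moved less than 1 on the log2 scale. By diet in KO these were Ahr (-0.80), Ptgis (-0.68), the bile acid receptor Nr1h4 (-0.56), the AHR target Tiparp (-0.47) and the vitamin D receptor Vdr (0.53). By diet in WT they were the oxysterol receptor Nr1h3 (-0.69), the electron donor Fdx1 (-0.56), Nr1h4 (-0.47), the receptor partner Rxrb (-0.47), and the epoxide hydrolases Ephx2 (-0.37) and Ephx1 (0.58). Ephx2 was also lower in KO on the low fat diet (-0.44). Several of these calls were close to the threshold. Of the other settings, 19 of 29 ended the Ephx2 call by diet in WT and 10 of 29 that by genotype, 18 of 28 ended Vdr, 13 of 29 Tiparp, 8 of 29 Rxrb and 6 of 29 Fdx1. Nr1h4 lay between 3.196 and 4.314 on all arrays, near the limit of detection used here. Cytochrome P450 reductase itself was not analysed here.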

How the data were processed

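White adipose RNA was hybridised to Affymetrix mouse arrays. The authors deposited log2 values per probe set; the submitters' processing notes name GCRMA 2.20.0 and R 2.11.1. Filters and batches are not stated in the sources used here. Low log2 values depend on that background correction, so changes were also computed with values under 4 raised to 4.

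Of 45037 probe sets, 34945 named 1 gene, 932 several and 9160 none. Each gene took its brightest probe set with 1 symbol; 4 P450 probe sets with several symbols were set aside. Genes with a log2 of 4 or more in at least 4 of 16 arrays were tested (12078 of 18193). limma 3.58.1 in R 4.3.3 fitted 4 group means (12 residual and 3.84 prior degrees of freedom). Tests were two-sided and adjusted by Benjamini-Hochberg over the 12078 genes, with a threshold of 0.05, and the fit was tested on simulated data. The P450 genes, lists and alternatives were chosen with earlier results of these data known.

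All P450 genes past the threshold are named, Cyp2f2 throughout, with others where a role has under 7 genes. The number of arrays limits precision. Array medians ran from 4.34 to 4.46, and arrays of a group correlated at 0.987 to 0.996. Promoters are from RefSeq (51 of 72 genes matched).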

Additional observations from a re-analysis of the deposited data

Results flagged for a closer look

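In 104 groups of 4 arrays (26 genes), 3 arrays lay far from the other 3 of their group; chance gives about 1 in 20 groups. The first WT high fat array had 7.53 for Cyp2c23, below the other 3. The fourth WT high fat array had 6.996 for Cyp2s1, above the other 3. The same array had 7.39 for Cyp4f15, against 1.78 to 2.84 on the 15 others; this is the array with the epithelial transcripts.

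The diet change differed between KO and WT for 5 P450 genes and for 4 genes that work with them. The difference, KO minus WT, was -0.86 for Cyp4v3, -0.75 for Cyp27a1, 2.18 for Cyp2b10, -0.81 for Cyp2e1 and 1.07 for Cyp2r1. It was 1.29 for Cyp51 (adjusted p = 0.00606), -0.85 for Ptgis (adjusted p = 0.0323), 0.90 for the oxysterol receptor Nr1h3 (adjusted p = 0.0399) and 0.86 for the vitamin D receptor Vdr (adjusted p = 0.049). Of the 4, Cyp51 passed under all 28 other settings, while the call was lost under 13 of 28 for Ptgis, 14 of 28 for Nr1h3 and 18 of 27 for Vdr.

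A probe set that names both Cyp4f37 and Cyp4f16, and so entered no comparison, was higher in both high fat groups than in every WT low fat array. It averaged 7.05 ± 0.17 in KO high fat, 6.52 ± 0.13 in WT high fat, 6.44 ± 0.31 in KO low fat and 5.85 ± 0.30 in WT low fat (SD, n = 4 each).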

How the results depend on the processing

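The 38 calls of P450 genes kept their direction under every alternative run, except that Cyp2c70 by genotype on the low fat diet was 0.00 with values raised to 4, and 17 passed under all of them. Each call was checked in each of 16 fits that left out 1 array, and 35 of these 608 checks lost the call. Under other settings 30 of 439 checks did. The same call could be lost in several checks. The 5 muscle-rich arrays mattered most: without them 17 calls were lost while the changes kept 64.5% to 119% of their size, and 11 arrays remained. The count by genotype on the low fat diet, 8, was then 1; it was 4 with only the 2 groups in the fit, 3 at a threshold of 0.01 and 5 to 10 leaving out 1 array (5 without the first KO or the first WT low fat array). By genotype on the high fat diet the count of 5 became 3 without the muscle-rich arrays (4 to 5 leaving out 1 array). For the difference between genotypes in diet change, 5 became 1 without them, 11 with array weights, 2 at 0.01 and 4 to 7 leaving out 1 array. Counts by diet stayed within 7 to 11 in KO and 7 to 13 in WT; the cause of these changes was not tested. The replicate number as a block gave 9, 10, 5, 8 and 6 calls for diet in KO, diet in WT, genotype on high fat, genotype on low fat and the difference. Over 24 pairs of same-numbered arrays deviations correlated at -0.321 to 0.199, 5 of them over 0.1. Pairs with different numbers were not set beside these, so the check cannot tell whether the numbers pair the samples. Signals near a log2 of 4 limit Cyp2b10, Cyp2c70, Cyp2f2 and Cyp2r1.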
